A study of Drosophila melanogaster with 2 samples.

Results

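The neuroblast temporal patterning factors are 10 Drosophila transcription factor genes, hb, Kr, cas, grh, slp1, slp2, D, tll, klu and opa, taken as a named list and found by symbol in the Ensembl annotation of the fly genome. The rule uses no measured value, but the list was drawn up with earlier results of these data known. They were 10 of 13945 protein-coding genes on the assembled chromosome arms. Binding of the homeodomain protein bsh (brain-specific homeobox) near them was read from chromatin immunoprecipitation followed by sequencing (ChIP-seq). The chromatin came from whole Drosophila melanogaster embryos of both sexes, 0 to 24 h old, of a transgenic strain, bsh-GFP, in which GFP is joined to the C-terminal end of bsh, and the labels describe the immunoprecipitation as made with an antibody to GFP, although their antibody entry reads bsh. There was 1 group with 2 biological replicates, both of that strain, so no comparison between conditions was possible, and p-values are not given. The sequence that drives the fusion is not stated in the labels, and no library without the fusion was analysed here. Whole embryos mix all cell types, so a site used in few cells and a weakly used site cannot be told apart.

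Neural stem cells of the fly, the neuroblasts, make different neurons in a fixed order by passing through a series of transcription factors. In the embryonic nerve cord the series runs through hb, Kr, the POU genes nub and pdm2, and cas, with grh in late neuroblasts. In the larval optic lobe medulla, neuroblasts pass through another series that includes klu, opa, slp1 and slp2, D and tll, and in larval intermediate progenitors D and grh follow each other. bsh itself is known in the optic lobe as a determinant of neuron identity. Most members have an earlier role too: hb, Kr and tll are gap genes of the early embryo, opa, slp1 and slp2 act in the pair-rule network, and D encodes a Sox protein needed for segmentation.

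Of the 10 members, 3 were called, that is, had the summit of a region in the authors' thresholded list inside the gene or no more than 2 kb outside it. They were klu, grh and D. The thresholded list, made by the irreproducible discovery rate (IDR) from the agreement of ranks between replicates, held 4447 regions on the dm6 genome build. Its regions were the 4447 of highest signal in the list pooled from both replicates. A region in it need not stand among the strongest 4447 of each replicate. The same rule called 24.9% of all protein-coding genes (3470 of 13945), so the members' share was near the background. The 3 called members held 8 IDR summits, 5 at grh, 2 at klu and 1 at D. The other 7 members held 0, and of these hb, cas and tll held no region at all, even in the relaxed lists that also contain background.

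Longer genes offer more room for a summit, so the counts were set beside genes of similar length. Of the 7 members shorter than 8 kb, 1 was called (D), beside 23.7% of the genes between 1425 and 6843 bp long. Of the 3 longer ones, grh, klu and opa, 2 were called, beside 51.7% of the genes between 17167 and 41689 bp long. Whether either count departs from those shares was not tested.

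The rank of each member's best region was used to set the members in order, because the deposited signal value has no stated scale and was compared within a list only. Each relaxed list, from the pooled reads or from 1 replicate, held 30000 regions. The order by pooled rank was klu (168), grh (371), D (3365), slp1 (7016), slp2 (9685) and Kr (26191), followed by the 4 members without a pooled region in reach. klu ranked 141 and 240, and grh 463 and 306, in replicates 1 and 2. D ranked 3514 and 4639, slp1 9148 and 7644, slp2 10028 and 13360, and Kr 23979 and 13608. The replicate ranks of neighbours in this order did not overlap, but with 2 replicates that is a description only. Replicate 2 placed slp2 and Kr at almost the same rank (13360 and 13608), while replicate 1 set them far apart (10028 and 23979). The order of these 6 was the same in both replicates, except that opa, with a region in replicate 1 only (rank 17931), stood before Kr there. The Kr ranks come from different positions at the gene, as described with it.

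**Figure D1:**
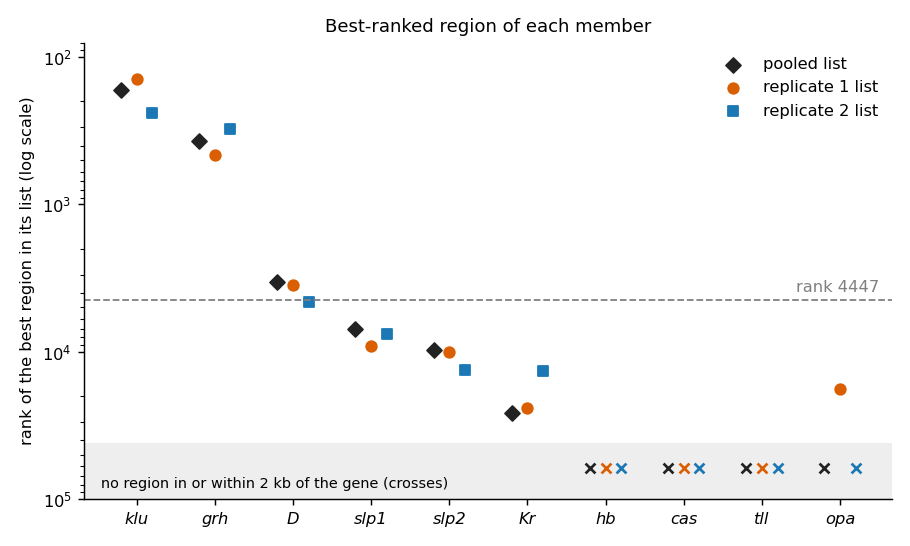
The best-ranked region in or within 2 kb of each member is plotted on a log scale of rank, with rank 1 the strongest, for the pooled list (diamonds), replicate 1 (circles) and replicate 2 (squares), and crosses mark lists with no region there. klu and grh lie far above the dashed line at rank 4447, the size of the IDR list, D lies around it, and hb, cas and tll have no region in any list.

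klu (klumpfuss) encodes a zinc finger protein that keeps neuroblasts renewing and marks an early stage of the medulla series. The gene lies on 3L from 10981171 to 11009188, minus strand, and held the strongest region of all members. Its summit at 3L 11010628 was intergenic, 1440 bp upstream of the gene's 5′ end, with a pooled signal of 611.7. In the replicates the signal was 368.5 (rank 141) and 242.3 (rank 240), and the summits lay 1 and 12 bp from the pooled one. The second region, with its summit 163 bp upstream of the 5′ end at 3L 11009351, had a pooled signal of 259.1 (rank 1237). It ranked 912 with signal 173.4 in replicate 1 and 2185 with signal 85.4 in replicate 2. Thus both replicates placed the distal summit above the promoter summit.

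Sequences of the 2 klu summits are printed because they carry the strongest signal among the members and differ in their short words. Each runs 5′ to 3′ on the minus strand for 100 bp on either side of the summit, in the RefSeq copy of the dm6 assembly, and capitals mark the words searched. The promoter window is chr3L:11009251-11009451 and the distal one chr3L:11010528-11010728.
klu promoter summit: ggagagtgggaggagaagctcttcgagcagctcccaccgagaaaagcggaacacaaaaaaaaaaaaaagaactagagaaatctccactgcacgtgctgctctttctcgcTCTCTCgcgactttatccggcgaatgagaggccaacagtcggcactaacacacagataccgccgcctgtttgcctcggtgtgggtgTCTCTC
klu distal summit: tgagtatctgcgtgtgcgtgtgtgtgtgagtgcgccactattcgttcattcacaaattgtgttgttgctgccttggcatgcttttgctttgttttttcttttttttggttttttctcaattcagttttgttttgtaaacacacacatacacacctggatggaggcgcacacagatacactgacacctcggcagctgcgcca

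The 4 words were searched on both strands. TAATTA is the core word of many homeodomain proteins, and CAATTA is a close variant of it. The GAGA factor is known to bind GAGAGA. Zelda, an activator of the early embryo, is known for CAGGTA. The promoter window held GAGAGA in 2 places, in the form TCTCTC, and 52.7% of its bases were G or C. The distal window held none of the 4 words, and G and C made up 44.3%. Absence of a word says only that these letters are not in this window.

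Between its 5′ end and 2 kb beyond its 3′ end the pooled list had 12 further regions, all below the IDR threshold, and none of the IDR regions lay in the gene body. The best of the 12, 1256 bp into the gene, had a pooled signal of 75.0 and rank 9124. It ranked 7447 in replicate 1 and 18073 in replicate 2. A further IDR summit stood 4506 bp beyond the 3′ end, at 3L 10976665, with a pooled signal of 206.1 (rank 1805) and ranks of 1713 and 2021 in the replicates. It was nearest to the transcription start site (TSS) of CG14147, 4017 bp away, and was outside the 2 kb limit.

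grh (grainy head) encodes a transcription factor of late neuroblasts and of epidermal and tracheal cells. It is the longest member, on 2R from 17801132 to 17842820, plus strand, with 5 annotated transcript starts. The strongest of its IDR summits lay in an intron at 2R 17820385, 19253 bp into the gene and 3180 bp upstream of its last annotated transcript start. The pooled signal there was 455.6 (rank 371), with 237.6 (rank 463) in replicate 1 and 218.5 (rank 306) in replicate 2. In both replicates it was the best grh region.

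The next grh summit, 3795 bp into the gene and also intronic, had a pooled signal of 279.9 (rank 1071) and ranked 865 and 1472 in the replicates. The summit 148 bp inside the first annotated start had 219.6 (rank 1637), with replicate ranks of 1621 and 1750. This last one also fell within 2 kb of the neighbouring gene Dhit. A weaker intronic summit 10012 bp into the gene had 150.6 (rank 3086), with replicate ranks of 3078 and 3691. The fifth summit was 662 bp beyond the 3′ end of grh and 40 bp from the TSS of Orai, which encodes a calcium channel, with a pooled signal of 199.6 (rank 1907) and replicate ranks of 2185 and 2151. Nearest-TSS assignment would give this last region to Orai and the other 4 to grh. All 5 were in the strongest 4447 regions of each replicate.

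Beneath these, grh was covered by weaker regions. The pooled list held 32 summits in its window, 27 of them outside the IDR list, with a median signal of 63.4 and a range from 27.9 to 455.6. Of the 32, 25 were intronic and 7 were within 500 bp of a TSS, counting introns and starts of any protein-coding gene. Inside grh itself lay 29 of the 32. The summits 42350 and 42550 bp from its 5′ end were past the gene, 40 and 240 bp from the TSS of Orai. The summit at 43478 bp, also past the gene, was in an intron of another gene. Regions of both replicates overlapped 27 of the 32. Some of these regions overlap each other: the summits 148 and 349 bp into the gene, for example, match the same replicate regions, so the 27 are not independent. The lowest member region inside the IDR threshold was that of D at rank 3365. The member regions just outside it were at 35012 bp (signal 117.5, rank 4572) and 6157 bp (signal 117.4, rank 4585) into the gene. The first ranked 3690 in replicate 1 and 8003 in replicate 2, and the second 7336 and 3799, so the replicates disagreed on which was the stronger.

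**Figure D2:**
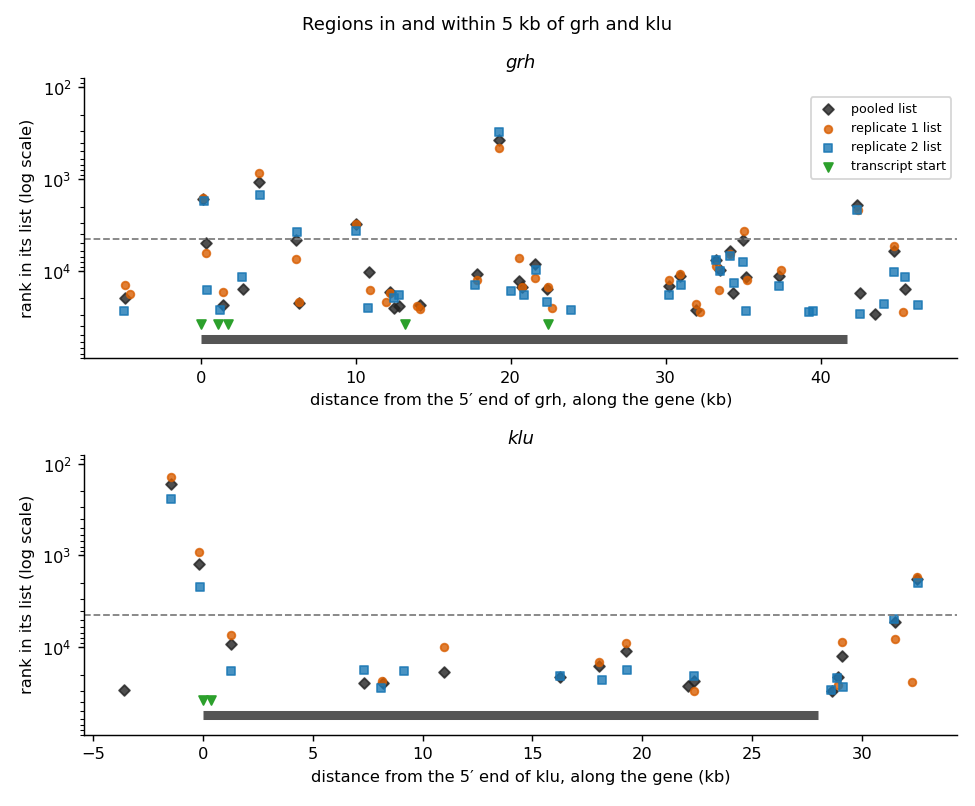
Every region in or within 5 kb of grh (top) and klu (bottom) is placed by distance of its summit from the gene's 5′ end in kb, along the direction of transcription, and by its rank on a log scale, for the pooled list and both replicates; dark bars show the gene, triangles the transcript starts and dashed lines rank 4447. Pooled regions above the line in grh stand at the 5′ end, in introns and past the 3′ end, and those of klu stand outside the gene.

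D (Dichaete), a Sox gene of the medulla series and of intermediate progenitors, was the shortest of the called members, 3011 bp on 3L from 14175610 to 14178620, minus strand. Its IDR summit at 3L 14177692 was 928 bp into the gene, in the 5′ untranslated region of the longer transcripts and 155 bp upstream of the second annotated start. The pooled signal was 142.7 (rank 3365). Replicate 1 gave 80.5 (rank 3514) and replicate 2 gave 56.3 (rank 4639), with summits 9 and 37 bp away. The rank in replicate 2 is below the 4447 strongest of that list. The window of 100 bp on either side held GAGAGA in 2 places and CAGGTA in 1, with 55.7% G and C, the highest of the 8 member summits. A weaker summit 702 bp into the gene (signal 57.4, rank 13041) belonged to an overlapping region.

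slp1 and slp2 (sloppy paired) are adjacent forkhead genes on 2L that share much of their expression and mark the middle of the medulla series. Neither was called, yet each had a pooled region at its promoter. At slp1 (2L 3825675 to 3827099, plus strand) the summit was 161 bp upstream of the 5′ end, with a pooled signal of 89.9 (rank 7016) and replicate signals of 44.4 and 41.7. At slp2 (2L 3836840 to 3839185, plus strand) it was 188 bp upstream, with a pooled signal of 71.8 (rank 9685) and replicate signals of 41.7 (rank 10028) and 28.7 (rank 13360). Within 5 kb of either gene the region of highest signal lay between them, 4335 bp upstream of slp2, with a pooled signal of 108.8 and rank 5203, 57.6 (rank 6097) in replicate 1 and 48.4 (rank 6003) in replicate 2. Its summit was at the same base in all 3 relaxed lists. The nearest IDR summits were 20298 bp upstream of slp1 and 19137 bp beyond the 3′ end of slp2.

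The 3 slp windows are shown because both replicates recovered each, below the IDR threshold, at matching places in a pair of related genes. They are on the plus strand, in the same format, at chr2L:3825414-3825614, chr2L:3836552-3836752 and chr2L:3832405-3832605.
slp1 promoter summit: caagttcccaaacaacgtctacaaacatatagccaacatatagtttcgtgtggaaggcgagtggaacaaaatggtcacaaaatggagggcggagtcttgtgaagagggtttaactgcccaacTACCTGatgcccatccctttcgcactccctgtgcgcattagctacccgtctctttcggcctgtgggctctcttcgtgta
slp2 promoter summit: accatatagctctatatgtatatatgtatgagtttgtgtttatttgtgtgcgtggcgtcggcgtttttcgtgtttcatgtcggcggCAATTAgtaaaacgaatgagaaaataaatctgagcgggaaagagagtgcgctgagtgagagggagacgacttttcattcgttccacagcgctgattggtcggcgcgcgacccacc
slp1 to slp2 intergenic summit: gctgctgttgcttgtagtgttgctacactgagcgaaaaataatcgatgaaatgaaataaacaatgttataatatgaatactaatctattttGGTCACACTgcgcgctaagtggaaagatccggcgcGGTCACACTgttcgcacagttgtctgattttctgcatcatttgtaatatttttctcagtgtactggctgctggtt

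The slp1 window held CAGGTA once, in the form TACCTG, and the slp2 promoter window held CAATTA once. Over pooled regions outside the IDR list, CAGGTA was in 4.06% of windows and CAATTA in 17.1%. The intergenic window held none of the 4 words and instead held GGTCACACT in 2 places, the centre of a core promoter element known as Motif 1. This longer word was looked for only after the sequence had been seen. It was in 24 of the 4447 IDR windows (0.54%) and in 0.618% of the other pooled windows, and 4 of all 30000 pooled windows held 2 or more copies. None of the 8 member IDR windows contained it.

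opa (odd paired) encodes a Zic-type zinc finger protein of the pair-rule network and the medulla series. The gene, 17167 bp on 3R from 4852813 to 4869979, plus strand, had no pooled region in its body or within 2 kb. Replicate 1 alone had 2 weak regions in the gene, 238 and 4773 bp from the 5′ end, with ranks of 23334 and 17931. An IDR summit lay 3943 bp beyond its 3′ end, at 3R 4873922, with a pooled signal of 130.4 (rank 3913), 66.4 (rank 4835) in replicate 1 and 61.6 (rank 3926) in replicate 2. Its nearest TSS was that of laf, 4611 bp away. With klu's downstream summit it is the nearest IDR summit left outside by the 2 kb limit. Its window, chr3R:4873822-4874022 on the plus strand, is shown because it decides whether opa is called.
opa downstream summit: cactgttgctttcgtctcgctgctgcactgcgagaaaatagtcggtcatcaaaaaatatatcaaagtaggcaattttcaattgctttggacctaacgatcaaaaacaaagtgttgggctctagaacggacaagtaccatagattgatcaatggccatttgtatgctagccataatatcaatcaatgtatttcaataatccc

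That window held none of the 4 words, and its G and C content was 38.3%.

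Kr (Krüppel), the zinc finger gene that follows hb in the embryonic series, was at the bottom of the members with a region. The gene lies on 2R from 25226611 to 25231394, plus strand. Its pooled region, 96 bp upstream of the 5′ end, had a signal of 31.4 and rank 26191 of 30000. Replicate 2 had a region there, at rank 13608, and another 624 bp into the gene, at rank 17506. Replicate 1 had none at the promoter and 1 region 1078 bp into the gene, at rank 23979. The replicates thus placed their Kr regions at different points. The nearest IDR summits were 59259 bp upstream and 22106 bp downstream of the gene.

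hb (hunchback), cas (castor) and tll (tailless) had no region in or within 5 kb of the gene in the pooled list or in either replicate. hb opens the embryonic series and cas comes late in it, both as zinc finger genes, while tll, a nuclear receptor gene, comes late in the medulla series. The same absence was found for 25.0% of all protein-coding genes, and for 22.4% of those between 1425 and 6843 bp long. Around hb (3R 8690980 to 8697822, minus strand, 2 transcript starts) the nearest pooled summits were 15111 bp upstream and 16392 bp downstream of the gene. In replicate 1 the nearest were 7812 bp upstream, at rank 3258 of its list, and 14486 bp downstream. In replicate 2 they were 14284 bp upstream, at rank 18738 of its list, and 16945 bp downstream. Around cas (3R 5712975 to 5716805, minus strand) the nearest pooled summits were 19825 bp upstream and 18339 bp downstream, and both were IDR summits. Replicate 2 had a cas summit nearer, 16332 bp downstream, at rank 7453 of its list. Around tll (3R 30852315 to 30854400, plus strand) the nearest pooled summits were 9748 bp upstream and 18429 bp downstream. The nearest IDR summit was 9947 bp upstream. Replicate 2 had tll summits nearer, 9059 bp upstream, at rank 2930 of its list, and 15939 bp downstream, at rank 21048.

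The gap between neighbouring pooled summits that held the 5′ end was 41994 bp for cas, 38345 bp for hb, 30262 bp for tll and 26962 bp for opa. At Kr it was 21611 bp. Over all genes with summits on both sides the median gap was 12665 bp and the upper quartile 49323 bp. The gaps of hb, cas and tll were longer than those of 70.1%, 71.8% and 65.8% of genes. All 3 gaps were below the upper quartile. These genes were grouped for having no summit within 5 kb, which by itself makes the gap long, so their place above the median is no separate result. The gaps of D (10006 bp), grh (5040 bp), slp1 (4630 bp), slp2 (4498 bp) and klu (1419 bp) were below the median.

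**Figure D3:**
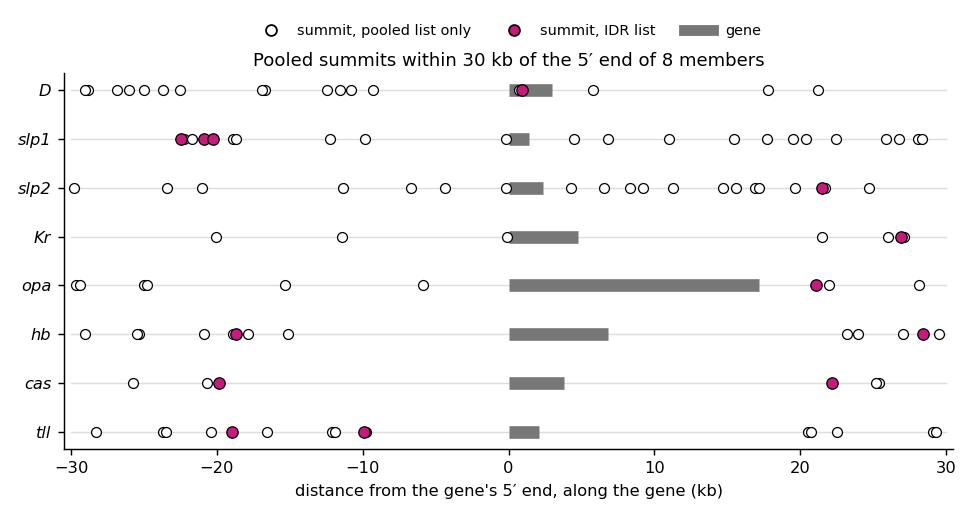
Pooled summits within 30 kb of the 5′ end of the 8 members other than grh and klu are placed by distance in kb along the direction of transcription, with grey bars for the gene and filled points for IDR summits. D has an IDR summit in the gene, slp1, slp2 and Kr have a pooled summit just upstream, and the genes opa, hb, cas and tll hold none in the gene or within 2 kb.

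In all, 52 of the 30000 pooled summits, 49 of replicate 1 and 49 of replicate 2 lay in or within 2 kb of a member. Over the windows of all 10 members this came to 34.4 pooled and 5.29 IDR summits per 100 kb, beside 24.9 and 3.81 over the windows of all protein-coding genes. Replicates 1 and 2 each gave 32.4 relaxed summits per 100 kb at the members, beside 24.7 and 25.2 over all genes. The summits were spread unevenly, and grh and klu held 46 of the 52 pooled ones. These 2 genes were singled out after their values were seen, so their density of 59.2 pooled summits per 100 kb, and that of 8.16 at the other 8, opa included, only describe the spread. At least 1 pooled summit was found at 6 of the 10 members and at 59.8% of all genes.

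Of the 8 member IDR summits, 4 were within 500 bp of a TSS, 3 were in introns and 1 was intergenic. Over the IDR list 36.9% were within 500 bp of a TSS, 43.0% were in introns and 18.5% were intergenic. GAGAGA was in 4 of the 8 member windows, at D, at the klu promoter and at 2 grh introns, and in 16.3% of all IDR windows. TAATTA was in 1 of the 8, the grh intron 3795 bp from its 5′ end, and in 13.6% of all IDR windows. CAGGTA was in 1, at D, and in 3.58% of all. CAATTA was in 0 of the 8 and in 15.9% of all. Median G and C content was 41.0% in the 8 windows, ranging from 28.9 to 55.7%, and 37.3% over the IDR list. With 8 windows, 5 of them at 1 gene, these shares were not compared by a test. Of the 44 other pooled windows at members, 27 at grh and 12 at klu, GAGAGA was in 7, TAATTA in 6, CAATTA in 8 and CAGGTA in 6. Over pooled regions outside the IDR list the shares were 11.1%, 12.1%, 17.1% and 4.06%. Some of the 44 regions overlap each other, and these counts were not tested either.

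Of the 4 genes of the embryonic cascade, hb, Kr, cas and grh, 1 was called (grh). Of the 7 genes of the later series, slp1, slp2, D, tll, klu, opa and again grh, 3 were called (D, klu and grh). The same rule called 24.9% of all protein-coding genes. It called 23.7% of genes as long as the 7 shorter members and 51.7% of genes as long as the 3 longer ones, grh, klu and opa. The difference between the cascade and the later series was not tested, and they share grh.

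Other temporal and progression genes outside the members were called in 11 of 19 cases (57.9%). The strongest were Eip93F, an ecdysone-induced gene of old neuroblasts, with a signal of 790.4, mamo, a zinc finger gene of mushroom body neuron identity (589.3), Syp, an RNA-binding protein gene of late neuroblasts (442.5), and Imp, its counterpart in young neuroblasts (327.0). Then followed br (256.0, nearest to the TSS of Mur2B), hth (188.3), nub (182.8, nearest to Ref2) and danr (182.2). The median length of the 19 genes was 33875 bp, against 4307 bp for the members. The share of the longer genes given above was 51.7%, but it covers genes of 17167 to 41689 bp only. Most of the called temporal genes were longer than that, up to 144412 bp (mamo), and danr was shorter (1832 bp). The 57.9% is therefore not matched by length to that share. pdm2, hbn, scro, erm, gcm, dan, lin-28 and Oaz, which the annotation names L, were not called. Genes for neuroblast formation and division were called in 4 of 17 cases, brat (519.3), numb (396.4), pros (145.3, nearest to KP78b) and dpn (124.3). The median length of this list was 3322 bp. Of the called genes, brat (45943 bp), numb (26716 bp) and pros (79148 bp) were far longer, and dpn (3360 bp) was not. brat and numb act in asymmetric division, pros in ending self-renewal and dpn in keeping it. Segmentation genes outside the members were called in 2 of 14 matched cases, nkd (328.6) and wg (298.0), both of Wingless signalling. They were 41709 and 9107 bp long, in a list with a median of 2941 bp. The shares of these lists were not matched by length either. All protein-coding genes were called in 24.9% of cases.

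**Figure D4:**
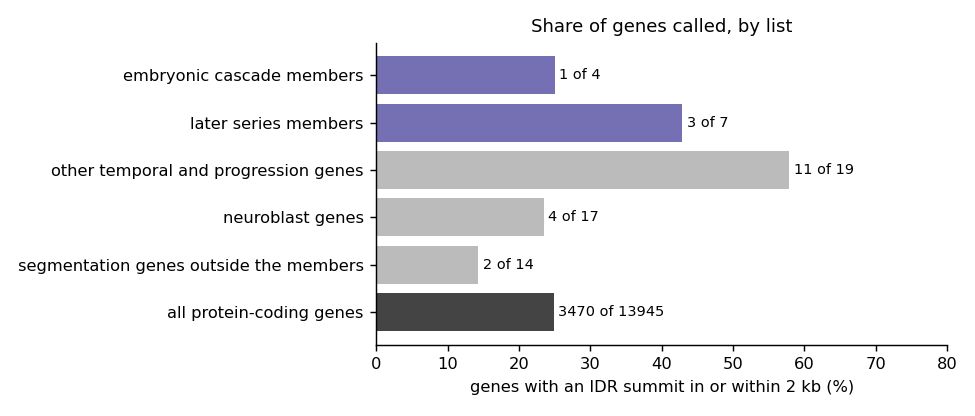
Bars give the percentage of genes in each list that had an IDR summit in or within 2 kb of the gene, with the number called and the number matched beside each bar, and with all protein-coding genes at the bottom. The embryonic cascade (1 of 4), the neuroblast genes (4 of 17) and all genes (24.9%) stand close together. The later series (3 of 7) stands above them and the segmentation genes (2 of 14) below. The temporal genes outside the members (11 of 19), which have a much higher median length, stand highest.

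The genes whose best ranks in the pooled and both replicate lists came nearest to those of klu, by the sum of absolute log2 differences of rank over the 3 lists, were tou (163, 126 and 239, sum 0.21), CG6678 (166, 129 and 223, sum 0.25) and mam (182, 146 and 226, sum 0.25). Likeness here is of rank only.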

How the data were processed

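ChIP-seq of bsh-GFP was deposited as region lists in narrowPeak form, on dm6 and dm3, for 2 replicates, their pool and the IDR result. Only the dm6 lists were used, to match the gene annotation (Ensembl release 115, BDGP release 6). A promoter is within 500 bp of a transcript start. Promoters, introns, intergenic positions and nearest TSSs were read from protein-coding genes only, so non-coding genes at these sites were not considered. Per the labels, chromatin was sonicated to 200 to 800 bp. The records deposited with the lists name alignments and 1 further input file as the source of each relaxed list, and the 3 relaxed lists as the source of the IDR list. The sources used here do not state the aligner, the peak caller or the IDR threshold.

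The signal column is the authors' own deposited value of unstated scale, and was used to rank regions within a list. The deposited −log10 q column had the same highest value in 7005 pooled regions and was not used for ranking. The deposited p-value column holds a placeholder. A last column deposited by the authors gave the summit offset. The lists hold no read numbers, so depth is unknown. All 4447 IDR regions were the top of the pooled list. Replicate 2 contains 13 mitochondrial regions among its ranks, which replicate 1 does not.

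Summits were placed in genes with Python 3.11.15, numpy 2.4.6 and pandas 2.3.3, and plotted with matplotlib 3.10.9. Regions were matched between lists by an overlap of at least 1 bp, taking the best rank. The window rule and word search were tested on simulated data. No statistical test was run: there was 1 group of 2 replicates, and shares are set beside those over all genes or regions. Members, lists and words were chosen with earlier results of these data known. All 10 members were named, and from other lists the called genes, at most 8 in order of signal. The symbol h was not matched, and Oaz was matched through its RefSeq synonym. Alternatives were other distances, thresholds, assignments, single replicates and word windows.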

Additional observations from a re-analysis of the deposited data

How the results depend on the processing

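Of 57 alternative counts, 48 stayed within 1.5 times the main count. Called members were 2 with the gene body only (klu was lost), 4 within 5 kb (opa was added) and 5 within 10 kb (tll was added as well), where all genes were called in 11.6%, 36.2% and 50.2% of cases. Summits at members numbered 5 with the gene body only and 15 among the top 8894 pooled regions, where slp1 was added and 4 members were called, beside 39.8% of all genes. Members with any pooled region fell from 6 to 3 with the gene body only. The share of all genes under that narrower rule was not computed, so the fall is not a result about the members. With the top 4447 regions of a single replicate, the called members were 3 without replicate 2 and 2 without replicate 1 (D was lost), beside 24.7% and 26.0% of all genes. With windows of 200 bp each side TAATTA was in 2 member summits and CAATTA in 1, beside 21.2% and 28.2% of all IDR windows, and with 50 bp each side GAGAGA was in 2, beside 7.92%. In the top 2223 of the IDR list 7 of the other temporal genes, 2 of the neuroblast genes and 2 members were called, beside 15.1% of all genes. Of 21 alternative best ranks of single members, 7 moved by more than the SD of the replicates, 5 of them on leaving out a replicate. That SD came from the same 2 replicate ranks that served as alternatives, so these counts do not measure how stable the ranks are. For klu the gene body alone gave 9124, because both IDR summits lie outside it, and for slp2 a reach of 5 kb gave 5203. The cause was otherwise not tested. The search for GGTCACACT was added after seeing the data. As the lists hold no read numbers, signal could not be compared across them. No paired analysis was possible because the series has a single group.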
